A study of Mus musculus with 8 samples.

Results

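The CD24Mid cells are epithelial cells of the mouse small intestine, sorted by flow cytometry for an intermediate surface level of CD24 (called CD24low in the submitters' manuscript). CD24 is a glycoprotein carried by cells of the crypts. Cells positive for CD45, the leukocyte antigen, or for Ulex europaeus agglutinin I, a lectin that binds fucosylated glycans, were depleted in the same sort. The libraries were chosen by their titles alone: 4 of the 8 RNA-seq libraries of the series are CD24Mid, numbered 1, 3, 5 and 7, and all 4 enter every value below. The submitters called them biological replicates. The labels name no strain, genotype, age or sex and do not say whether animals were pooled, so the spread given here is that between these samples. No treatment is recorded.

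The crypts of the small intestine hold stem cells at their base and, above them, dividing progenitors whose daughters become absorptive enterocytes or secretory goblet, Paneth, enteroendocrine and tuft cells. Wnt and Notch signals keep the crypt cells dividing, and Olfm4, Lgr5 and Smoc2 mark the base. Because all cells of a sort are pooled in 1 library, a low level of a gene can come from fewer cells that express it or from less RNA per cell, and these cannot be told apart.

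The unit of level is the estimated FPKM, fragments per kilobase of effective transcript length and per 1000000 mapped fragments. The estimate shares out reads that fit several genes, so it allows levels of different genes to be compared. Each library held 17248564 to 19340254 mapped fragments, of which 89.1% to 90.7% hit 1 gene alone. Where a library has 0 reads of a gene, the count allows up to 0.155 to 0.174 per 1000000 mapped fragments (3 counts, counting error only). Values of single libraries are given in the order 1, 3, 5 and 7, and errors are SD over the 4 libraries (n = 4).

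All 5 genes that mark the labelled population were expressed, at levels that differed by over 100 times. Olfm4, which encodes a secreted crypt base glycoprotein, stood at 1627, 2214, 2039 and 2302 FPKM, which put it at place 48 of 37620 genes. Cd24a, the gene of the sorted antigen, was at 130.2, 218, 157 and 171. Smoc2, a matricellular protein of stem cells, was at 108, 117, 107 and 92.4. The division marker Mki67 was at 55.5, 64.5, 110.3 and 117. The stem cell receptor Lgr5 was lowest of the 5, at 12.1, 15.2, 20.3 and 15.8. Library 1 had the lowest Olfm4, Cd24a, Mki67 and Lgr5 of the 4, and Mki67 in libraries 5 and 7 lay above both others. In gene-unique reads per 1000000 mapped fragments, which are not divided by transcript length, Olfm4 had 4081 ± 610.2, Mki67 742 ± 270.0, Smoc2 228 ± 14.9, Lgr5 59.2 ± 12.96 and Cd24a 242 ± 53.3. Epcam, an adhesion molecule of all gut epithelium, was at 996 ± 74.5 FPKM, whereas Ptprc, which encodes CD45, was at 1.81, 0.647, 1.43 and 2.87. Fut2, a fucosyltransferase of the kind of glycan the lectin binds, was at 0.237 to 0.478.

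A level of at least 1 FPKM in all 4 libraries, called expressed below, was reached by 11450 of 37620 genes (30.4%), and by 10645 of 20195 protein-coding genes (52.7%). Among expressed genes the median of the mean levels was 17.2 FPKM and the 90th percentile 97.3. The summed level was concentrated in few genes. The highest 185, 174, 225 and 236 genes held 50% of the summed level in the 4 libraries, and 118 to 142 genes exceeded 1000 FPKM.

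Messenger RNAs of the mitochondrial genome led the population. The 13 genes, which encode subunits of the respiratory chain and ATP synthase, held 16.3 ± 0.309% of the summed level and 8.46 ± 0.511% of the gene-unique reads. The first of them, mt-Co2, a cytochrome c oxidase subunit, stood at 24573, 24516, 19198 and 21159 FPKM. Its neighbour mt-Co1, the catalytic subunit of the same enzyme, was at 22611, 22359, 20774 and 21254, and their order differed between libraries. Below these came mt-Atp8, mt-Co3, mt-Atp6 and mt-Cytb, at means of 17434, 17208, 16029 and 12686 FPKM. By this estimate the complex I subunits were lower, with mt-Nd1 at 7199, mt-Nd4 at 6568, mt-Nd2 at 3983, mt-Nd3 at 3496 and mt-Nd6 at 2707. By gene-unique reads per length, however, mt-Atp8 and mt-Atp6 had 6539 and 4509 FPKM, below mt-Nd1 at 7257 and mt-Nd4 at 6602. The places of mt-Atp8 and mt-Atp6 thus rest on shared reads. mt-Cytb varied least of the 6 highest, at 12359.5, 12671, 12683 and 13029.7.

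The protein synthesis machinery was the other large block. Of 82 matched genes for cytosolic ribosomal proteins 80 were expressed. Together they held 14.1 ± 1.29% of the summed level and 3.46 ± 0.538% of the gene-unique reads. Rpl41 and Rps27rt, given below, are not in this list. Nor are copies such as Rpl31-ps8, at 2579 FPKM without a gene-unique read, beside 131 for Rpl31. Rpl10-ps3 had 1854, also without such a read, beside 268 for Rpl10. The shares are those of the listed genes alone, and reads placed on copies are left out. Rplp1, of the ribosomal stalk, stood at 4041 ± 709.9 FPKM, with Rps12 at 3909.6 ± 686, Rpl41 at 3455 ± 608, Rps24 at 3209.7 ± 559 and Rpl13a at 3151 ± 595. Other ribosomal genes among the 30 highest were Rps2, Rpl32, Rps15 and Rpl23a, between 2593 and 3056, and the retrocopy Rps27rt at 2661, of whose estimated reads 0.0352% were gene-unique. For Rps12, Rps2 and Rpl23a this share was 16.5%, 29.6% and 2.55%, so their levels rest mostly on shared reads. The highest nuclear gene of all was Eef1a1, the elongation factor that delivers aminoacyl-tRNA to the ribosome, at 7472, 7976, 7145 and 6461. Its partners Eef2, the translocation factor, and Eef1b2, the exchange factor, had 1552 ± 155 and 1465 ± 178.

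Other nuclear genes among the highest were those of gut epithelium and of iron and growth. Lgals2, a sugar-binding galectin, stood at 4561, 4709, 3593 and 3227 FPKM, above its paralog Lgals4 at 2831, 2312, 2162 and 1883 in every library. The ferritin heavy chain Fth1 was at 2854 ± 657, the growth-related Tpt1 at 2663 ± 333 and the chromatin-associated prothymosin Ptma at 2633 ± 234. Lypd8, a surface protein that keeps flagellated bacteria from the epithelium, was at 2364 ± 492. The keratins Krt8 and Krt19 had 2081 ± 313 and 2008 ± 431, and the goblet cell product Tff3 had 2178 ± 675. The immunoglobulin light chain gene Igkc was also among the 30 highest, at 3909, 3436, 1674 and 4301, lowest in library 5.

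**Figure D1:**
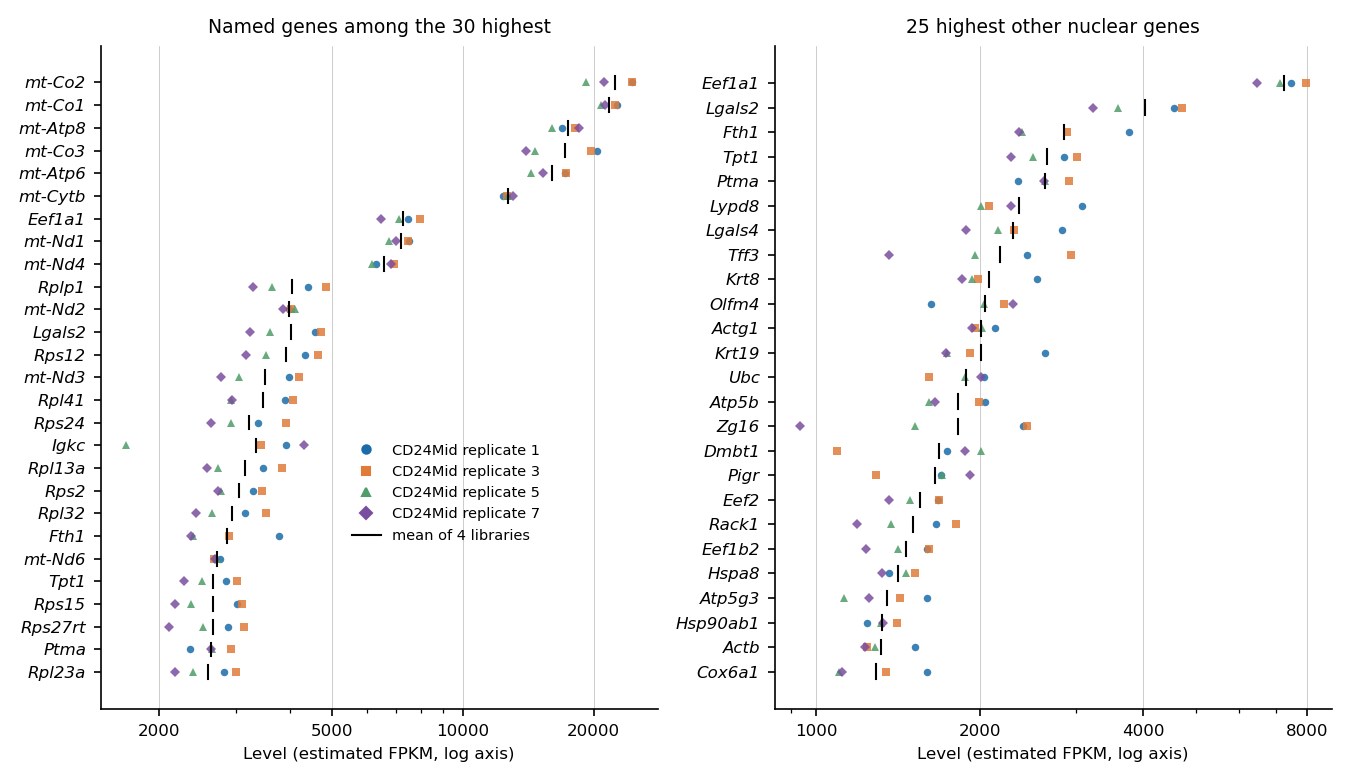
Level in estimated FPKM (log axis) of the named genes among the 30 highest (left) and of the 25 highest nuclear genes that are not ribosomal, immunoglobulin or predicted (right). Each symbol is 1 CD24Mid library and the black bar the mean of 4. mt-Co2 and mt-Co1 lead the left panel, Eef1a1 leads the nuclear genes between 6461 and 7976, and Igkc of library 5 and Zg16 of library 7 lie apart from the other libraries.

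The start sites of some high genes are shown because they differ in a short run of letters, TATAA. Their mean levels all lay above 97.3 FPKM, the 90th percentile of expressed genes. They are chosen examples and not a sample of the expressed genes. Each line gives 45 bases before and 5 bases from the annotated start, 5′ to 3′ on the gene's strand, from RefSeq (build GRCm38.p6, later than that of the deposited tables). Capitals mark TATAA, the start of a TATA box, where it lies within bases -40 to -16. The windows are chr14:80000257-80000306 (plus strand) for Olfm4, chr15:78855525-78855574 (minus) for Lgals2, chr12:85473845-85473894 (plus) for Fos, chr6:71199834-71199883 (plus) for Fabp1 and chr17:87635934-87635983 (plus) for Epcam.
Olfm4: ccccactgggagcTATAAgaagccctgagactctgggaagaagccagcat
Lgals2: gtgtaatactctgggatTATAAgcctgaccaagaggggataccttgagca
Fos: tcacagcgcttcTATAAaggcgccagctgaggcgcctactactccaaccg
Fabp1: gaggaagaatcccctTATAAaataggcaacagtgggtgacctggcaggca
Epcam: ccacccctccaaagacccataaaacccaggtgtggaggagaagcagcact
The crypt glycoprotein, the galectin, the immediate early factor and the fatty acid binding protein each hold the motif, and Epcam lacks these letters in that window. Only the exact letters were searched, so a similar stretch, such as cataa in the Epcam window, was not counted. On the gene's strand TATAA was found there in 756 of 15572 (4.85%) protein-coding genes with an entry, and in 230 of 8508 (2.70%) of those expressed. The share was 8 of 79 (10.1%) among the 100 highest protein-coding genes other than ribosomal, mitochondrial and predicted ones, and 28 of 745 (3.76%) among the next 900 of that order. The ribosomal protein genes had 5 of 61 (8.20%) and the expressed regulators described below 17 of 254 (6.69%). These shares describe letters at annotated starts and not measured start sites.

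Reads shared between near-identical genes set the level of some high features. Of 2356 genes with a mean of at least 50 FPKM, 39 had no gene-unique read in any library, and 27 of these 39 are annotated as pseudogenes. The predicted gene Gm10123 stood among the 30 highest at 3169 FPKM with 0 unique reads. The clearest case was a mitochondrial gene and its nuclear copy. mt-Nd4l, a complex I subunit, was listed at 4721, 5334, 2468 and 64.3 FPKM, and the pseudogene Gm10222 at 45.2, 3.51, 2680.4 and 4627. Neither had a gene-unique read, and their sum was 4986 ± 308, so the level of either alone is uncertain while the sum varied little. A feature with no name and the same effective length, also without a gene-unique read, is not in that sum. It was at 0.306, 6.29, 258 and 0.0122 FPKM, and whether it shares these reads was not tested. Features without a gene-unique read in any library held 4.06% of the summed level. By the largest ratio of estimate to unique level, the 10 leading genes with at least 50 FPKM included Gm15500, Gm8430, Gm10288, Rps16-ps2 and Tpt1-ps3, copies or predicted genes with 3 to 10 unique reads over the 4 libraries.

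Genes of the crypt base were expressed throughout, beside genes of several other lineages. All 20 of 20 crypt base genes were expressed. This and the list counts that follow stand beside 52.7% of all protein-coding genes. The lists hold chosen genes and are no random draw. After Olfm4 the highest were Slc12a2, a chloride cotransporter, at 123, 162, 214 and 199 FPKM, Cdca7, a Myc-responsive nuclear protein, at 116, 128, 116 and 109, and Smoc2. Ascl2, the transcription factor of Lgr5 cells, was at 15.2, 23.3, 20.9 and 14.1. Of the 5 reserve stem cell genes 4 were expressed, led by Hopx at 90.02, 113, 103 and 90.3. Bmi1 was at 11.8 ± 2.23 and Tert at 4.09 ± 0.544.

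Genes of dividing cells were expressed without exception, 25 of 25, beside 52.7% of all protein-coding genes. Pcna, the sliding clamp of DNA replication, led at 223, 269.8, 228 and 244 FPKM, followed by the ubiquitin conjugating enzyme Ube2c at 188, 209, 191 and 183 and topoisomerase Top2a at 142, 189, 195 and 206. The lowest of the list was the large kinetochore protein Cenpf, at 10.8, 16.6, 16.8 and 15.01. Replication and mitosis genes were both present. Library 1 was lowest for 19 of the 25 and library 3 highest for 18, and Mki67 differed by 2.12 times between its highest and lowest library. The median deviation of the 25 genes from their mean over the libraries was -0.12, 0.12, -0.01 and 0.01 on the log2 scale.

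Differentiated lineages were also represented. The enterocyte list had 20 of 20 expressed, led by the fatty acid binding protein Fabp1 at 595, 249, 575 and 170.4 FPKM. Its paralog Fabp2 was at 338, 299, 312 and 237, Dgat1, which makes triglyceride, at 350.3, 242, 215 and 207 and the brush border protein Vil1 at 307, 226, 231 and 249. Lower in the same list, the lactase gene Lct was at 7.63, 4.98, 5.02 and 6.80 and the peptide transporter Slc15a1 at 2.86, 2.05, 2.56 and 2.05. The goblet list had 10 of 11 expressed, with Tff3 at 2447, 2941, 1963 and 1361, the lectin Zg16 at 2403, 2443, 1522 and 933 and the mucus protein Fcgbp at 1708, 1668, 1165 and 746. Library 7 had the lowest of all 3. Muc2, the gel-forming mucin, was at 125, 122, 98.5 and 94.8.

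Paneth and hormone genes were present and uneven. Of the Paneth list 10 of 12 were expressed, led by the defensin Defa24 at 153, 419, 219 and 169 FPKM, the lectin Reg4 at 103, 245, 215 and 204, which the enteroendocrine list also holds, and the defensin Defa3 at 55.8, 234, 77.5 and 71.8. Library 3 was the highest for all 3, and near-identical defensin copies leave the single values uncertain. The enteroendocrine list had 16 of 20 expressed. Gip, the incretin of K cells, stood at 81.3, 1167, 279 and 175, highest in library 3, beside the granins Chgb at 70.7, 104, 177 and 140.2 and Chga at 62.5, 101.4, 138 and 111. Neurog3, which commits cells to the endocrine fate, was at 6.21, 14.6, 12.5 and 6.27. Of the tuft list 1 of 12 was expressed, the ion channel Trpm5 at 1.09, 2.63, 1.01 and 1.10; Dclk1, a defining tuft gene, was at 0.0378 to 0.138, and Il25 had no read.

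Markers of cells outside the epithelium were low apart from immunoglobulin genes. Of the B and plasma cell list 8 of 11 were expressed, with Igkc and the joining chain Jchain at 461, 479.6, 229 and 596 FPKM, while the B cell surface gene Ms4a1 was at 0.314 to 0.664. Sdc1, next in that list at 72.2 ± 4.45, is also made by epithelium. The T and NK lymphocyte list had 4 of 14 expressed, led by the granzyme Gzma at 7.82, 2.43, 1.85 and 5.14, Cd7 at 6.70, 2.09, 2.37 and 5.51 and the chemokine Ccl5 at 6.63, 1.998, 1.24 and 3.72. All 3 were highest in library 1. Myeloid genes had 5 of 12, led by Cd14, Itgam and Tyrobp at 9.01, 7.17 and 6.04. Of stroma and endothelium 1 of 13 was expressed, Vim at 7.12 ± 1.40, and Des, Pdgfra, Col1a2 and Lum had no read. None of 8 neural and none of 5 erythroid genes was expressed. The part that lymphocyte RNA plays in any level given here was not tested.

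**Figure D2:**
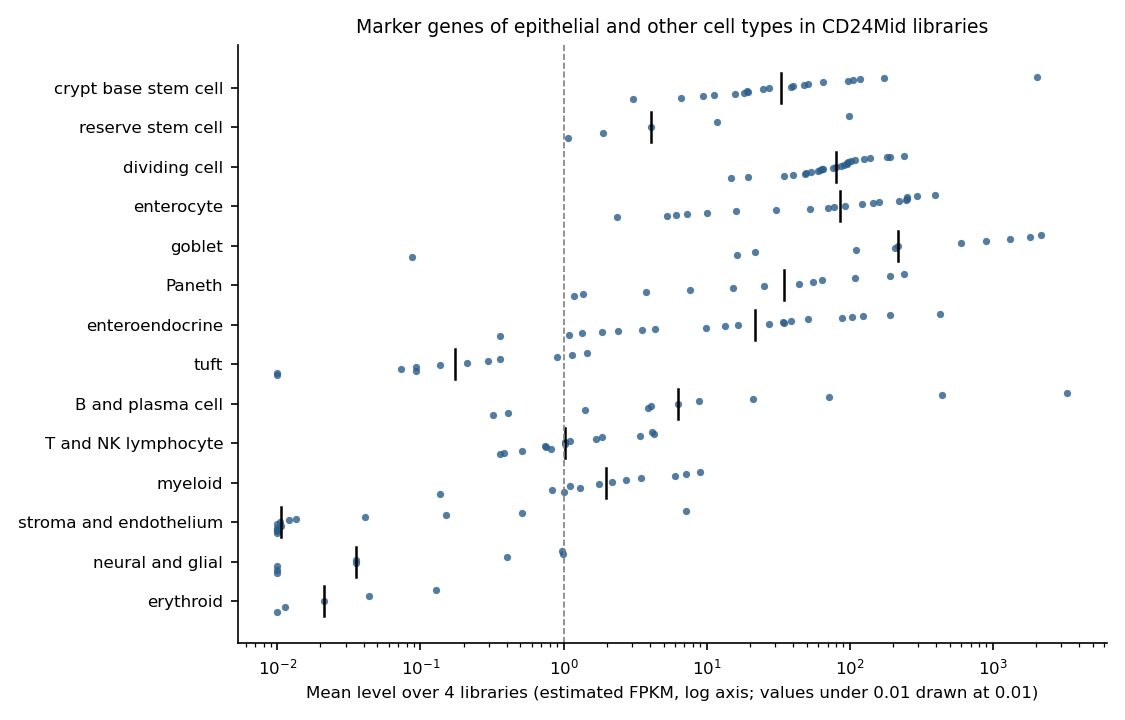
Mean level over the 4 CD24Mid libraries (estimated FPKM, log axis) of each marker gene, 1 point per gene, by cell type list; the black bar is the list's median and the dashed line the threshold of 1 FPKM. All genes of the crypt base, dividing cell and enterocyte lists lie above 1 FPKM, whereas most tuft, stromal, neural and erythroid genes lie below it.

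Of 464 transcription and chromatin regulators 325 were expressed (70.0%), beside the 52.7% of all protein-coding genes; the list holds chosen regulators and is no random draw. Of them, 194 were at or above 10 FPKM in every library and 24 at or above 100. None was among the 100 highest genes. The median of the expressed regulators was 16.8 FPKM, beside 18.04 for all expressed protein-coding genes.

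The order of the regulators was led by factors of quite different kinds. Ybx1, a cold shock domain protein that binds nucleic acids and packages mRNA, stood first in the list at 808, 849.7, 739 and 766 FPKM. Zbtb11, which the list does not hold, was higher, at 1299, 1351, 1065 and 1001. Of its estimated reads 24.4% were gene-unique, and by those reads per length it had 287 FPKM. Fos, an AP-1 subunit of the immediate early class, had 696, 428, 882 and 683, and library 3 lay below the others. Elf3, an Ets factor of epithelium, was at 430.2, 439, 431 and 379. Hmga1, an architectural chromatin protein, was at 411, 488, 375 and 385, with 102 by gene-unique reads. Aes, a short Groucho family corepressor, was at 456, 434, 347 and 355, and Jun, the partner of Fos, at 413, 264, 484 and 416. Hnf4a, the nuclear receptor that directs enterocyte genes, had 354, 368, 387 and 382 and, with Ctnnb1, the smallest spread of the 30 highest. The Wnt effector Ctnnb1, which encodes beta-catenin, was at 291, 315, 299 and 309.

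AP-1 and early growth response genes gave 6 of the 30 highest regulators. Egr1 was at 261, 172, 363 and 271 FPKM, Jund at 249, 194, 237 and 226, Junb at 221, 101.4, 189.6 and 174 and Fosb at 128, 78.99, 207 and 153. Library 3 held the lowest value of each of these 4, and of Fos and Jun as well. Of the 24 genes of the immediate early list 23 were expressed, and in library 3 their median deviation from the mean was -0.42 (log2), against 0.34 in library 5. These genes are among the first to be transcribed when a cell receives a stimulus.

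Intestinal identity factors came next in the order. Klf5, a zinc finger factor of crypt cells, was at 149, 164, 205 and 202 FPKM, lower in libraries 1 and 3 than in 5 and 7. The helix-loop-helix inhibitor Id1 was at 213, 135, 198 and 147 and the vitamin D receptor Vdr at 177, 174, 171 and 154. Mlxipl, the glucose-responsive factor also called ChREBP, was at 182, 153, 146 and 160.5. The caudal factors Cdx1 and Cdx2, which specify intestine, stood close: Cdx1 had 145, 183, 161 and 144, and Cdx2 had 171, 175, 141 and 136. Xbp1, of the unfolded protein response, had 155, 122, 134 and 143. The Notch target Hes1 had 106, 99.3, 108 and 86.9. Others among the 30 were Cnbp, Ybx3, Atf4, Nfe2l2, Maz, Ctbp1, Irf1, Esrra, Tfdp1 and Ppard, from 99.5 to 291.

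**Figure D3:**
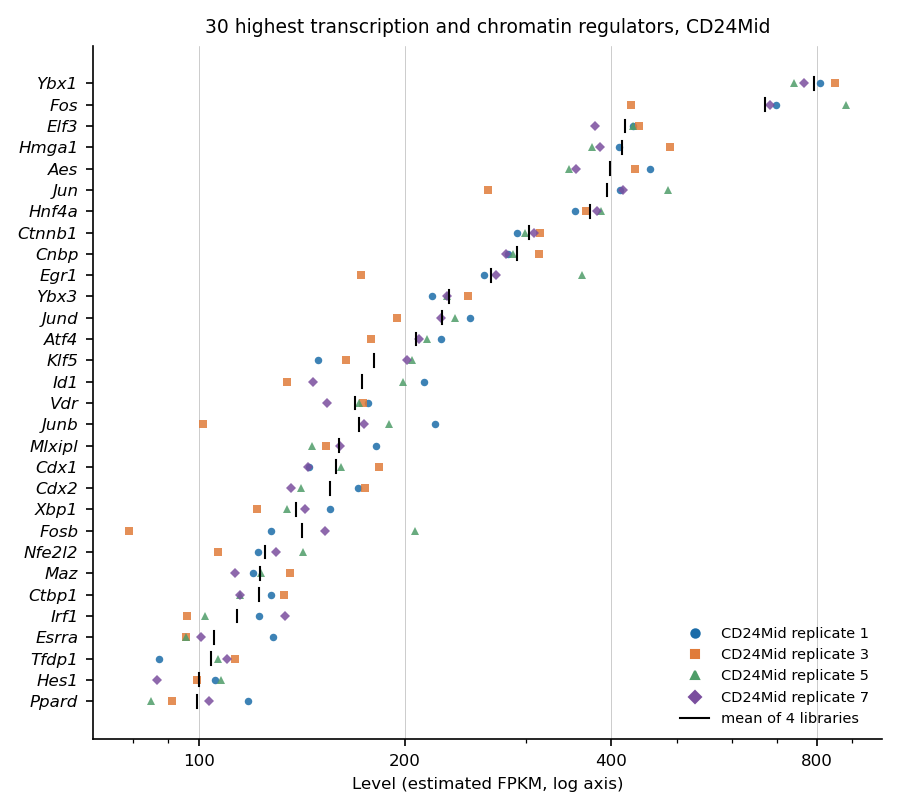
Level in estimated FPKM (log axis) of the 30 highest listed regulators in CD24Mid cells, 1 symbol per library and a black bar for the mean of 4. Ybx1 leads at 739 to 849.7, Hnf4a and Ctnnb1 have tight libraries, and library 3 (orange squares) lies at the low end for Fos, Jun, Egr1, Junb and Fosb.

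In most gene families the same member stood highest in all 4 libraries. Of 765 matched family members 473 were expressed, and the counts of single families below stand beside 52.7% of all protein-coding genes. Of 83 family lists 80 had an expressed member, and in 66 of these 80 the same gene led in all 4 libraries. In 62 of them that gene also led throughout by gene-unique reads per length. The leader held a median of 51.6% of its family's summed level, over 50% in 42 families and over 90% in 3. Of 393 pairs of neighbours in the orders of expressed members, 268 (68.2%) stood in the same order in all 4 libraries. The other 125 changed order in at least 1 library. An exact sign-flip test over 4 libraries cannot go below p = 0.125 (two-sided), so an order is described and not tested.

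The Wnt pathway was present on the receiving side. None of 19 Wnt ligands was expressed: Wnt3, the Paneth cell ligand, was highest at 0.995, 2.03, 1.88 and 1.51 FPKM, just under the threshold in library 1. None of 4 R-spondins was expressed, and Rspo1, Rspo2 and Rspo3 had no read. Their receptors were led by Lgr4 at 43.6, 47.6, 58.9 and 57.96, above Lgr5 at 12.1, 15.2, 20.3 and 15.8 in every library, and Lgr6 had no read. Lgr4 held 76.8% ± 2.01% of the summed level of this family.

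Among 10 Frizzled receptors 7 were expressed. Fzd5 stood at 62.6, 56.3, 71.7 and 64.99 FPKM and held 72.9% ± 2.79% of the family's sum, with Fzd7 next at 8.75, 11.8, 11.9 and 10.9 and Fzd6 at 3.32, 3.68, 3.51 and 3.66. The coreceptor Lrp5 was at 41.2, 35.03, 37.5 and 37.02 and Lrp6 at 11.5, 10.6, 19.7 and 18.1. Of the DNA-binding partners of beta-catenin, Tcf7l2 at 11.9, 13.1, 12.5 and 13.5 lay above Tcf7 at 7.28, 9.07, 7.20 and 7.51 in all 4 libraries, and Tcf7l1 and Lef1 were below 1. Of the feedback inhibitors, Axin2, a scaffold of the destruction complex, was at 56.7, 67.8, 76.1 and 60.1. Rnf43, which removes Frizzled from the surface, was at 36.1, 42.4, 39.8 and 36.8. In the wider list of Wnt receptors and feedback genes 15 of 23 were expressed.

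Both sides of the Notch pathway were expressed. Notch1 stood at 10.9, 10.9, 15.1 and 12.1 FPKM, above Notch2 at 4.89, 4.91, 6.86 and 6.85, and Notch4 at 1.63, 0.956, 1.77 and 1.43 did not reach 1 in every library. Of the ligands Dll1 led at 20.3, 25.1, 28.1 and 24.4, with Jag1 at 6.47, 4.69, 7.05 and 6.74 and Dll4 at 5.71, 5.33, 7.21 and 5.29, whose order differed between libraries. Hes1 and Hes6, a repressor that Notch induces and one that opposes it, were the 2 expressed members of 9 Hes and Hey factors, at 99.9 and 48.4. Atoh1, which Hes1 represses in the secretory choice, was at 8.40, 12.8, 8.55 and 7.98.

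The ErbB receptors kept 1 order in all 4 libraries, as did the leading Eph receptors but not those below them. Erbb3, the kinase-impaired member, stood at 79.9, 61.1, 70.8 and 76.5 FPKM, above Erbb2 at 63.7, 49.97, 53.6 and 54.4 and Egfr at 8.87, 7.53, 14.5 and 12.5, while Erbb4 had no read. Of 11 ligands of this family 5 were expressed, led by Hbegf at 46.3, 22.6, 68.1 and 48.8 and Areg at 12.9, 9.18, 15.6 and 12.4. Of 14 Eph receptors 5 were expressed, and Ephb4 at 69.2, 70.3, 75.1 and 65.2 lay above Ephb2 at 36.9, 38.7, 41.6 and 43.4, the receptor that positions crypt base cells. The ephrin ligands were led by Efna1 at 59.02 ± 6.12 and Efnb1 at 45.1 ± 4.39.

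In the BMP and TGF-beta family the receptor leader was not settled. Acvr1b, an activin receptor, stood at 27.6, 26.9, 28.7 and 30.7 FPKM and led in libraries 1 and 3. Bmpr1a, a BMP receptor, stood at 18.4, 20.5, 31.7 and 32.1 and led in 5 and 7. Bmp3 led the ligands at 16.8, 12.3, 18.7 and 16.3, followed by Bmp7 at 5.17, 7.20, 5.92 and 5.39, and Bmp5 had no read. Of the signal transducers, Smad4, the common partner, was at 44.2, 52.7, 55.4 and 56.9, above Smad1 at 30.2 and Smad2 at 17.1. The Id genes, BMP targets, kept the order Id1, Id3 and Id2 in every library, with means of 173, 73.8 and 32.2.

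Among transcription factor families of the gut, Gata4 stood at 106, 99.2, 95.5 and 79.8 FPKM, above Gata6 at 44.8, 44.9, 47.2 and 47.2 and Gata5 at 25.7, 24.4, 23.4 and 17.5 in each library, and Gata1 and Gata3 had no read. Hnf4a lay above its paralog Hnf4g, at 60.7, 41.8, 84.9 and 76.2, in all 4 libraries. Cdx1 and Cdx2 shared their family's sum almost evenly, and Cdx2 led in library 1 only. Pdx1, a factor of duodenum and pancreas, was at 4.27, 3.46, 4.21 and 2.71. None of 38 Hox genes was expressed, with Hoxb9 highest by its mean, at 2.08, 1.70, 0.668 and 1.31, though Hoxa9 and Hoxb6 were highest in libraries 5 and 7.

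Of 17 Kruppel-like factors 11 were expressed, and Klf5 held 45.1% ± 2.59% of their sum, above Klf6 at 43.8, Klf3 at 42.2 and Klf10 at 40.5. Klf4, a factor of goblet and differentiated cells, came after these at 25.99, 23.5, 38.3 and 31.97. Elf3 held 54.2% ± 3.73% of the summed level of 25 Ets factors, followed by Ehf at 60.4, 75.8, 92.4 and 85.6 and Ets2 at 55.9, 68.5, 66.7 and 62.4. Of 47 nuclear receptors 33 were expressed, led in the order Hnf4a, Vdr and Esrra. Sox9, a crypt factor, was at 20.9, 29.5, 30.1 and 29.01. Sox4 stood close at 14.9, 25.9, 33.6 and 26.04 and led in library 5. The Foxa pioneer factors were low, with Foxa3 at 10.98, 18.9, 13.6 and 10.5 and Foxa1 at 9.01, 13.4, 12.9 and 13.4.

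Other lists of regulators had a steady leader. Foxo4 led the Foxo factors at 19.1 FPKM, Foxp4 the Foxp factors at 61.1, Tead3 the Hippo pathway's Tead factors at 21.3 and Stat6, which serves interleukin signals, the Stat factors at 74.6. Irf1 led the interferon regulatory factors at 114, Mafk the Maf factors at 25.8 and Tcf3, an E protein, the helix-loop-helix lineage factors at 67.5. Among Prdm factors Prdm4 at 11.3, 12.3, 12.99 and 13.6 and Prdm2 at 9.84, 10.7, 13.5 and 12.3 were not told apart.

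Cell cycle families gave a mixed picture. The kinases kept 1 order in every library: Cdk4, which acts with D-type cyclins in G1, at 327, 387, 319 and 292 FPKM, Cdk1 at 118, 139, 121 and 128, Cdk2 at 34.7, 39.8, 35.8 and 33.6 and Cdk6 at 5.78, 8.40, 13.03 and 10.5. The D-type cyclins did not, since Ccnd2 at 73.03, 76.99, 94.8 and 82.98 and Ccnd1 at 73.1, 60.3, 84.1 and 84.4 changed places, with Ccnd3 below both at 23.8. Ccna2 and Ccnb2, of S phase and mitosis, also changed places, with 74.7, 98.1, 103 and 105 for Ccna2, and 91.2, 102, 85.6 and 88.8 for Ccnb2. The kinase inhibitors lay close together, with Cdkn1b at 32.2, 38.5, 39.8 and 40.4, Cdkn1a at 37.9, 30.4, 35.9 and 27.2 and Cdkn3, a phosphatase, at 35.8, 35.6, 27.04 and 29.4. Cdkn2b, at 40.2, 18.4, 20.7 and 29.6, led in library 1. Rbl1 and Rb1, of the retinoblastoma family, had 15.9, 18.00, 18.5 and 22.7 for Rbl1, and 13.4, 14.5, 22.1 and 24.4 for Rb1.

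Myc at 61.8, 65.3, 70.4 and 54.4 FPKM lay above Mycl at 18.6, 26.7, 22.7 and 19.9 and Mycn at 3.93, 4.04, 4.14 and 2.72 in each library. All 8 of 8 E2F factors were expressed, led by E2f4 at 68.9, 67.02, 65.9 and 67.5, a mostly repressive member, with E2f8 at 31.9, 39.6, 38.1 and 39.3 and E2f2 at 31.03, 26.5, 24.7 and 29.2. E2f1, the classical activator, was at 11.2, 15.1, 11.6 and 10.8. All 9 Mcm helicase genes were expressed, led by Mcm6 at 94.8, 128, 103 and 108. Mlx led the Max and Mxd group at 56.8, above Max at 37.3.

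The series concerns hydroxymethylcytosine, the oxidised form of methylcytosine that Tet dioxygenases make. Tet3 was the highest of these enzymes at 13.5, 11.97, 15.5 and 15.7 FPKM, above Tet2 at 3.15, 2.73, 4.61 and 4.65 and Tet1 at 0.23, 0.364, 0.596 and 0.435 in all 4 libraries, and held 77.5% ± 2.63% of their sum. The maintenance methyltransferase Dnmt1 stood at 54.5, 66.1, 56.03 and 60.1, the de novo enzyme Dnmt3a at 11.4, 9.63, 15.5 and 13.3 and its paralog Dnmt3b at 2.66, 2.86, 3.36 and 2.51. Their catalytically inactive cofactor Dnmt3l had no read. Of the isocitrate dehydrogenases, which supply the 2-oxoglutarate that Tet enzymes use, the mitochondrial NAD-linked subunits Idh3b, Idh3g and Idh3a led at 269, 219 and 144, above Idh2 at 112 and the cytosolic Idh1 at 58.6.

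All 10 genes of the list of methyl-CpG readers and related proteins were expressed. Mbd2 led at 98.4, 97.9, 102 and 99.4 FPKM, followed by its relative Mbd3 at 84.4, 95.2, 75.9 and 79.4. Uhrf1, which guides Dnmt1, came next at 64.2, 74.3, 63.3 and 65.2. All 11 PRC2 genes were expressed: the histone-binding Rbbp7 and Rbbp4 at 176 and 134 and the methyltransferase Ezh2 at 39.7, 46.2, 57.1 and 52.5. The BAF remodelling ATPase Smarca4 at 53.05, 58.1, 58.7 and 60.6 lay above Smarca2 at 25.7, 31.5, 33.7 and 26.1, and Smarcd2 led 11 expressed core subunits at 102. Hdac1, Hdac2 and Hdac3 led the deacetylases at 88.7, 78.8 and 67.4; the latter pair changed places, and by gene-unique reads Hdac1 had 32.9 and led in no library. Hmgb1 led 9 expressed HMG proteins at 505, and H3f3a, H2afz and H3f3b led the histone variants at 783, 668 and 595. By gene-unique reads H3f3b led instead in all 4 libraries, at 575 against 202 for H3f3a.

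Structural families of epithelium came with some orders that changed. Krt8 at 2543, 1988, 1935 and 1858 FPKM and Krt19 at 2642, 1919.5, 1739.8 and 1730.3 exchanged the lead, and Krt18, the usual partner of Krt8, was at 373, 432, 344 and 284. Of the tight junction claudins Cldn7, Cldn3, Cldn15 and Cldn2 kept this order in every library, with means of 953, 446, 326 and 139. Only 2 of 8 cadherins were expressed, Cdh1 at 354, 289, 350.0 and 353 and the intestinal Cdh17 at 344, 263, 355 and 368, which changed places. Itga6 led the integrin alpha chains at 129, 132, 177 and 185, and Itgb1 the beta chains at 73.3, 65.9, 82.01 and 89.4. Actg1 lay above Actb, Tuba1b above Tuba1c and Tubb4b above Tubb5 in all libraries, with 2014 and 1318, 616 and 191, and 464 and 270.2. By gene-unique reads per length the actins turned, with 338 FPKM for Actg1 and 1312 for Actb, so their order rests on shared reads.

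Surface and secreted families followed. The transmembrane mucin Muc13 was at 722, 531, 584 and 747 FPKM and Muc3 at 301, 149, 222 and 214, and both stood above the secreted Muc2 and above Muc4 at 54.7, and Muc5b had no read. Lgals2 held 57.95% ± 2.71% of the galectin sum. Aqp1, a water channel, held 72.7% ± 3.61% of its family at 150.4, 158, 149 and 106. Of the membrane-bound carbonic anhydrases, Car9 had 111, 87.2, 83.6 and 89.2 and Car4 134, 67.3, 90.5 and 66.4, with no fixed order, and Car1 had no read. Anxa4 led the annexins at 409, S100a10, a partner of annexin A2, the S100 proteins at 348 and Tspan8 the tetraspanins at 479.8.

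The 3 families whose leader held over 90% were all of energy metabolism. Ldha held 99.7% ± 0.0619% of the lactate dehydrogenase sum at 1096, 909.5, 776 and 926 FPKM, Slc25a5 99.3% ± 0.0472% of the adenine nucleotide carriers at 1151, 1072, 975 and 1039.9 and Eno1 97.8% ± 0.262% of the enolases at 359.8, 318, 249 and 291. Pkm at 564, 473, 366 and 418 lay above Pklr, the pyruvate kinase of liver, at 89.2, 79.99, 63.1 and 72.4. Among hexokinases Hkdc1 at 82.7, 34.5, 45.1 and 52.2 led Hk2 at 16.1, 16.5, 15.7 and 18.6 and Hk1 at 1.99.

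Glucose transporters were low: Slc2a1 at 11.6, 12.9, 9.73 and 12.96 FPKM, the fructose carrier Slc2a5 at 9.65, 6.38, 3.79 and 3.67 and the basolateral Slc2a2 at 8.57, 3.74, 4.45 and 4.41. In peroxide defence Gpx1, Gpx2 and Gpx4 kept this order, at 845, 504 and 182, and Prdx1 led the peroxiredoxins at 826. The fatty acid binding proteins had no fixed leader, Fabp1 in libraries 1 and 5 and Fabp2 in 3 and 7, and Fabp6, of ileal bile acid transport, was at 245, 100.3, 42.3 and 133. In the Bcl2 family the effectors Bak1 and Bax, at 102 and 67.1, and the protective Mcl1, at 64.95, came first, with Bak1 leading in all 4 libraries and Bax and Mcl1 changing places. Among caspases the inflammatory Casp1 at 111, 86.2, 101.3 and 111 and the executioner Casp6 at 113, 84.1, 97.5 and 95.4 exchanged the lead. For translation, Eif4a1, a helicase, led the eIF4 factors at 509, though by gene-unique reads the lead passed between it, Eif4b and Eif4g2, and Pabpc1 led the poly(A)-binding proteins at 855.

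**Figure D4:**
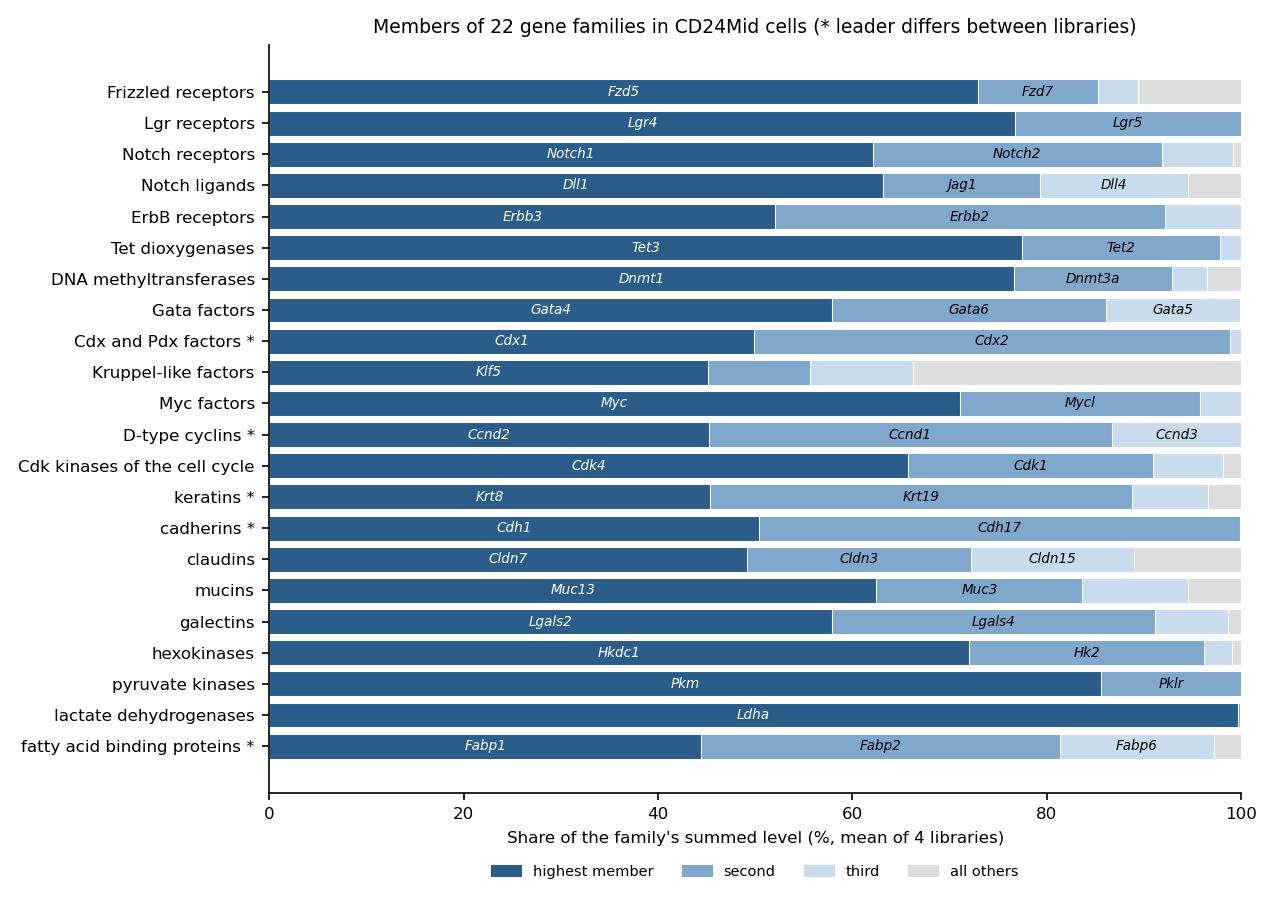
Share of each family's summed level (percent, mean of the 4 CD24Mid libraries) held by its leading member, by the next members and by all others, for 22 of the 83 families; an asterisk marks families whose leader differs between libraries. Single members hold over 70% in the Frizzled, Lgr, Tet, DNA methyltransferase and lactate dehydrogenase families, whereas Cdx1 and Cdx2, Krt8 and Krt19, and Cdh1 and Cdh17 divide theirs almost evenly.

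The spread between the 4 libraries was small for most genes. Over 12231 genes with a mean of at least 1 FPKM the median SD of the log2 level was 0.20, and at a mean of at least 5 it was 0.17, below 0.2 for 58.7% of 9498 genes. The common biological coefficient of variation of the gene-unique counts, from edgeR with an intercept alone, was 17.1%. Against the counting error of its reads, the spread was over 3 times as large for 5591 of 11991 genes (46.6%). Among genes with at least 50 FPKM the steadiest were Rab7, a late endosome GTPase, at 103, 103, 103 and 104, and the splicing-linked Dnajc8 at 105, 103, 104 and 104. The next were Mrpl3, Chp1, Pon2, Pdss1, mt-Nd6, Timm9, Slc25a15 and Ppp2r5a, with SDs of the log2 level of at most 0.02.

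Libraries 1 and 3 were most like each other, and so were 5 and 7. The median absolute log2 difference over 9498 genes was 0.102 between 5 and 7, 0.158 between 1 and 3 and 0.214 to 0.246 in the other pairs. No label gives a batch. The split went with transcript length: genes with an effective length under 500 bases had median deviations of 0.15, 0.17, -0.15 and -0.13 (log2), and those of 4000 bases or more had -0.22, -0.14, 0.17 and 0.18. The ribosomal protein genes, which are short, deviated by 0.13, 0.22, -0.13 and -0.23. Long transcripts such as Mki67, Apc at 6.59, 8.12, 15.4 and 15.5 FPKM and Mga at 6.22, 6.85, 14.01 and 13.7 were higher in both 5 and 7 than in 1 and 3. The part of length in these differences was not tested.

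Gene lists of single lineages set particular libraries apart. In library 3 the Paneth genes deviated by 0.93 and the goblet genes by 0.49 (log2, medians over 10 genes each), and the summed Paneth level was 445, 1263, 719.5 and 612 FPKM in the 4 libraries. Enteroendocrine genes deviated by -0.72 in library 1 and by 0.35 and 0.36 in 3 and 5, with sums of 514, 2084, 1172 and 919. Library 1 had the highest enterocyte genes, with a deviation of 0.42, and the highest T and NK lymphocyte genes, with 0.98. Heat shock genes were highest in library 7, at 0.33, where the cytosolic chaperone Hsp90aa1 had its top value among 186, 259, 354 and 422.

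**Figure D5:**
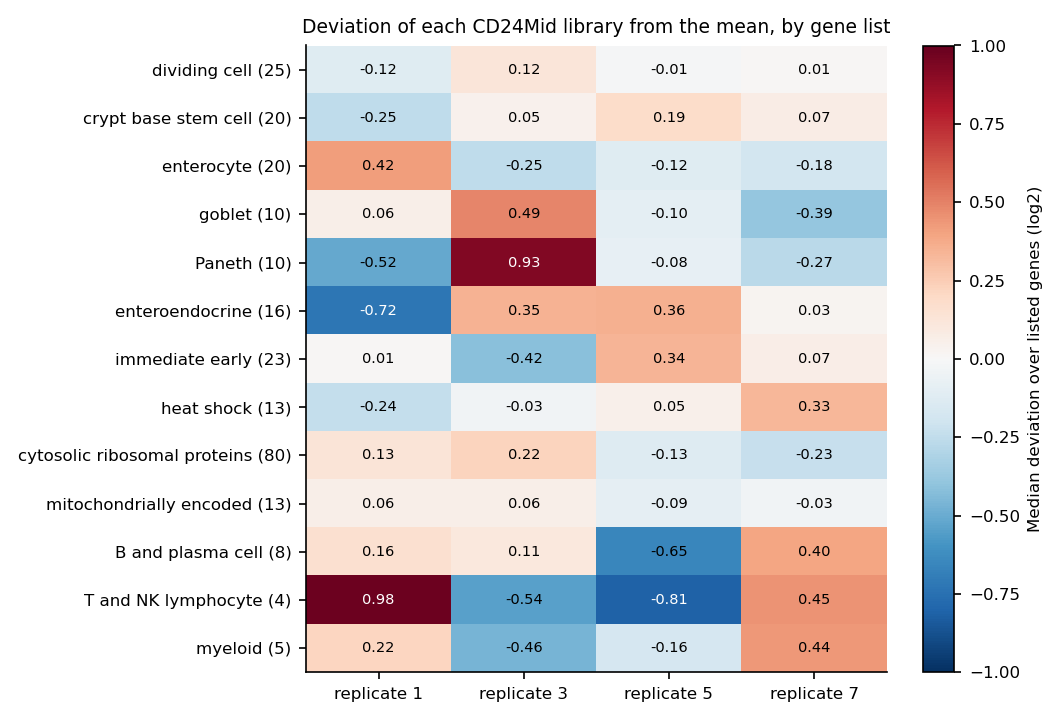
Median deviation (log2) of each CD24Mid library from the mean of the 4, over the expressed genes of each list, whose number stands in parentheses; red is higher and blue lower. The Paneth list of library 3 (0.93) and the T and NK lymphocyte list of library 1 (0.98) are the highest fields, and the enteroendocrine list of library 1 (-0.72) and the T and NK list of library 5 (-0.81) the lowest.

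The largest spreads belonged to immunoglobulin variable genes and to features that share their reads. Of 132 genes with a mean of at least 5 FPKM and an SD above 1 on the log2 scale, 28 are annotated immunoglobulin genes, 69 have no name in the reference and 11 are pseudogenes. Among the 25 largest, 12 have no name, and the named ones include Igkv4-50 at 150.4, 0, 0 and 3.42 FPKM, Igkv4-86 at 174, 0, 0.528 and 1.76, Igkv4-91 at 66.6, 31.2, 1.15 and 0, Igkv4-74 at below 0.01, 19.5, below 0.01 and 0.852 and Igkv6-13 at 7.54, 5.32, below 0.01 and 28.4. These encode the variable part of the kappa light chain. Others of the 25, such as Rpl28-ps1, Gm12033, Gm10051 and Snora73b, had at most 2.02% unique reads.

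Immunoglobulin variable genes were uneven over the libraries. Of 89 annotated variable genes or pseudogenes 37 reached 10 FPKM in a library, 13 of them in 1 library only and 5 in all 4. In these 37, chosen for a high value in any library, the highest library held a median of 67.3% of the gene's summed level, which the choice itself raises. Iglv1 was at 107, 359.7, 95.1 and 93.5, Igkv5-39 at 28.2, 294, 1.60 and 24.9, Ighv3-6 at 31.9, 24.7, 25.2 and 227 and Igkv11-106 at 173, 62.6, 0.835 and 5.38. For comparison, the kappa constant gene Igkc differed by 2.57 times between its highest and lowest library.

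Protein-coding genes with at least 90% gene-unique reads, a view added after the values were seen, gave 13 with an SD above 1. They included Gip and Pdk4. Pdk4, which blocks pyruvate entry to mitochondria, was at 10.7, 4.31, 17.8 and 3.92 FPKM, and Fabp1 and Creb3l3, a liver and gut factor of lipid handling at 43.2, 13.4, 34.3 and 11.7, had SDs of 0.90 and 0.95, just below that limit. In Pdk4, Fabp1 and Creb3l3, picked with this pattern seen, libraries 1 and 5 held the 2 highest values. Fabp6 and Clps, the colipase of fat digestion, were also above the limit and did not share that order, with Fabp6 at 245, 100.3, 42.3 and 133 and Clps at 13.2, 17.1, 7.91 and 3.45.

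In a list of fatty acid oxidation and related lipid genes written after this was noticed, most had that order. Beside oxidation enzymes the list holds Ppara, Plin2, Vnn1 and the thioesterases Acot1 and Acot2, of which all but Plin2 had that order. Of its 21 expressed genes 17 had their 2 highest values in libraries 1 and 5, an order found in 9.18% of the 9498 genes with a mean of at least 5 FPKM. Vnn1, counted among the 17, had a mean of 4.70 FPKM and is not among those 9498. The list was chosen with the pattern known, so the count is a description and not a test. The trifunctional enzyme subunits Hadha and Hadhb had 189, 139.8, 234 and 133 FPKM for Hadha, and 169, 122, 198 and 112 for Hadhb. Of the carnitine shuttle, Cpt1a was at 147, 88.8, 135 and 93.5 and Slc25a20 at 42.1, 23.3, 43.4 and 16.2, and the thioesterase Acot1 at 28.3, 15.3, 44.96 and 6.55. Ppara, the nuclear receptor known to drive such genes, was at 13.3, 11.7, 17.9 and 11.3. The exceptions were Ehhadh at 35.1, 28.5, 29.5 and 30.1, Plin2 at 80.1, 67.5, 61.01 and 54.1, Etfb at 230.4, 204, 192 and 143 and Hadh at 347, 308, 277 and 264. In libraries 1 and 5 the median deviations were 0.15 and -0.15 (log2) for genes with an effective length under 500 bases. For the enteroendocrine list they were -0.72 and 0.36. The summed enterocyte list, which holds Fabp1, was at 3302, 2060.0, 2470.0 and 2043 FPKM. Its median deviations were 0.42, -0.25, -0.12 and -0.18 (log2), and library 5 held the highest value of 1 of its 20 genes. The part of transcript length and of these lists in the pattern was not tested.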

How the data were processed

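RNA of flow-sorted cells was made into libraries with a TruSeq RNA kit, per the labels' protocols. Reads were aligned with Bowtie 0.12.8 to NCBIM37, per the submitters' processing notes. The deposited tables have the column names of MMSEQ, and its version, annotation and strand setting were not given in the sources used here; paralogs, overlapping and antisense genes are uncertain. Per the file headers, the authors give whole-number counts of gene-unique fragments, a log estimate of level that includes shared reads, and another value, the effective length. The scale is not labelled: the deposited estimate was read as the natural log of FPKM, since its exponential was 1.004 times the unique FPKM at the median of genes with at least 100 reads.

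Only the 4 CD24Mid tables entered the values, so no contrast was tested. Names were found for 32897 of 37620 gene IDs (87.4%), holding 99.3% of unique reads, and 1619 of 1641 list places in 109 lists were matched. Names and biotypes came from a later build, and the tables' coordinates are not used. Levels below 0.01 FPKM were set to 0.01 on the log2 scale. The tables have no SD column, so the planned estimation error was replaced by the counting error of unique reads. Dispersion came from edgeR 4.0.16 (TMM, limma 3.58.1, R 4.3.3) and was tested on simulated data. Other values were computed with pandas 2.3.3 and NumPy 2.4.6 in Python 3.11.15. Chi-square per degree of freedom between pairs of libraries was 10.8 or more, so no library is a copy of another's reads; repeats from 1 sample would not be seen this way.

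The genes and lists were chosen with earlier results of these data known. Genes named are the label and gate genes, the 30 highest genes, the top 3 of each family and marker list and members whose order changes or that are at 0, the 30 highest regulators, the 25 largest spreads (mean of at least 5 FPKM), the 10 smallest (at least 50) and the 10 largest ratios of estimate to unique level (at least 50). Members outside this rule, the further high nuclear genes, the genes with 90% unique reads and the list of fatty acid oxidation and related lipid genes were named after their values were seen.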

Additional observations from a re-analysis of the deposited data

Results flagged for a closer look

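Of 365 named genes with a mean of at least 1 FPKM, 18 (4.93%) had 1 outlying CD24Mid library. It lay farther from the rest than Dixon's 95% limit for 4 samples. Chance passes that limit in about 1 of 20 groups that were not chosen by their values. Some of the named genes were picked for a large or small spread over these same libraries, or after their values were seen. The share of 4.93% therefore cannot be compared with that rate, and the flags are a description. The immunoglobulin variable genes flagged below came from the pick of largest spreads. Library 3 stood apart in 8 of the 18 genes, library 1 in 7, library 7 in 3 and library 5 in 0.

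Library 3 was highest for the Paneth defensin Defa3 at 234 FPKM (others 55.8 to 77.5), the tuft channel Trpm5 at 2.63 (1.01 to 1.10), the Wnt effector Tcf7 at 9.07 (7.20 to 7.51), Tuba1b at 726 (572 to 594), Hmgn2 at 364 (299 to 308) and Igkv4-74 at 19.5 (others at most 0.852). It was lowest for the survival factor Mcl1 at 57.3 (67.1 to 68.03) and the cadherin Cdh1 at 289 (350.0 to 354). Library 1 was lowest for the crypt factor Sox9 at 20.9 (29.01 to 30.1) and for Foxa1 at 9.01 (12.9 to 13.4). It was highest for the calcium-binding S100g at 79.2 (27.9 to 36.02), the histone gene H3f3b at 637 (575 to 584) and the nuclear receptor Esrra at 128 (95.7 to 100.7). The same library held the top values of Igkv4-50 at 150.4 (others at most 3.42) and Igkv4-86 at 174 (others at most 1.76). Library 7 was lowest for Mycn at 2.72 (3.93 to 4.14), Aqp1 at 106 (149 to 158) and Elf3 at 379 (430.2 to 439).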

How the results depend on the processing

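The count of expressed genes was 11450, and 12395 at a threshold of 0.5 FPKM, 8878 at 5, 11155 by gene-unique reads per length and 11677 with levels rescaled to a sum of 1000000. Leaving out 1 library gave 11544 to 11603. The number of genes holding 50% of the level (mean 205 over the libraries) was 306 by gene-unique reads, 368.5 without mitochondrially encoded genes, which removes the highest genes by construction, and 195 to 215 leaving out 1 library. The mitochondrially encoded share of 8.46% of unique reads was 16.3% of the summed level, since the level is per length, and 8.29% to 8.64% leaving out 1 library. The count of families with 1 leader, 66, was also 66 by gene-unique reads, of which 62 had the same gene (actins and histone variants had another, deacetylases and eIF4 factors no steady one, and D-type cyclins and Sox factors gained one), and 66 to 70 leaving out 1 library. The median spread of 0.20 ranged from 0.17 (mean of at least 5 FPKM) to 0.21 (rescaled to 1000000) and from 0.17 to 0.20 leaving out 1 library. The count of genes over 3 times the counting error, 5591, was 8104 at 2 times, 5106 at a mean of at least 5 FPKM, 5635 with TMM factors and 4797 to 5612 leaving out 1 library. Of 365 named levels, 56 moved by more than their SD over libraries when only gene-unique reads were used and 250 when rescaled, which raises all genes of a library by 1 factor. No paired analysis was possible because only 1 group was analysed. Depth limits genes near 1 FPKM, and levels of genes with near-identical copies rest on how shared reads were assigned.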

Other observations

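Antigen presentation and defence genes were among the most variable genes with at least 90% gene-unique reads in the CD24Mid cells. The MHC class II gene H2-Aa stood at 61.4, 17.7, 36.2 and 124 FPKM, H2-Ab1 at 112, 33.2, 77.1 and 212 and Cd74, the invariant chain that guides class II molecules, at 433, 153, 310.0 and 830.0. All 3 had their highest level in library 7 and their lowest in library 3. Ptprc had its highest and lowest level in the same libraries, and the summed myeloid list was 43.4, 24.2, 29.4 and 49.96; what part other cells have in the class II level was not tested. The antibacterial lectins Reg3b, at 707, 125, 332 and 581, and Reg3g, at 635, 178, 234 and 588, were high in libraries 1 and 7 and low in 3 and 5. These genes were chosen after their values were seen.

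Genes that differ along the intestine were mixed. The ileal bile acid binding gene Fabp6 stood at 245, 100.3, 42.3 and 133 FPKM, while Gata4, a factor of the proximal intestine, was at 106, 99.2, 95.5 and 79.8 in the same libraries, and Slc10a2, the ileal bile acid transporter, was at 0.0651 to 0.166. Adh1 was the highest of the region list at 246, 199.9, 156 and 139. Cyp8b1, of bile acid synthesis, had no read. In a list of 13 long noncoding RNAs Gas5, a host of small nucleolar RNAs, led at 628, 629.6, 583 and 544. Xist, made from the inactive X chromosome, had 153, 165, 228 and 169, and of 5 genes of the Y chromosome Kdm5d, Usp9y, Ddx3y and Eif2s3y had no unique read and Uty stood at 0.00836 in library 1 only.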
